A study of Homo sapiens with 8 samples.

Results

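The MYC, MAX and MXD network was examined in LP-1 cells, a human multiple myeloma line, as the 10 genes MYC, MAX, MXD1, MXD3, MXD4, MXI1, MNT, MGA, MLX and MLXIP. They were chosen by symbol for their role in the network, and each matched 1 row among the 63129 rows of the deposited table. The filter on low values, a mean of 1 RPKM or more, was passed by all 10, and all were tested. RPKM counts reads per kilobase of a gene relative to the size of the library, so levels can be compared between genes.

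RNA sequencing was available for 8 libraries of LP-1 cells, all collected after 6 hr, in 4 groups of 2 biological replicates. The first experiment compared 2.5 μM SGC-CBP30, an inhibitor of the bromodomains of the coactivators CBP and EP300, with its own DMSO pair. The second compared 250 nM CPI203, an inhibitor of the bromodomains of the BET family, with another DMSO pair. No other agent or genetic change is named for these cells, and DMSO is the only vehicle. Each DMSO pair was assigned to a compound by the series of its library names (SL or CM), since no label states the match. Each series is called an experiment here. The groups model 1 cell line at 1 dose and 1 time for each compound, so compound, dose and experiment cannot be told apart where the responses are compared.

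MYC is a basic helix-loop-helix leucine zipper protein that binds DNA only as a dimer with MAX, at sites called E-boxes, where it raises the transcription of genes for growth and ribosome production. The MXD proteins (MXD1, MXD3, MXD4 and MXI1, also known as MXD2) and MNT compete for MAX and for the same sites and bring the SIN3 corepressor and its histone deacetylases. MGA dimerizes with MAX inside a Polycomb-type repressor complex. MLX is a MAX-like protein that pairs with MLXIP, also known as MondoA, to activate genes that respond to glucose, and it can also pair with MXD1, MXD4 and MNT. In myeloma MYC is a frequent driver, often through rearrangements that place it beside a strong enhancer.

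The E-box core is CACGTG, which reads the same on both strands. RefSeq promoters of GRCh38.p14, each 250 bases before to 50 bases after a start site, were found for 9 of the 10 genes. None was found for MYC, so its promoter was not searched. The 9 genes had 14 promoters in all, and CACGTG occurred in 3 of them. Among all 35116 promoters of the same length 7.26% held it. These windows of 30 bases are printed because they hold the sequence by which network proteins could bind genes of their own network, and capitals mark CACGTG. All lie before the start site, at first bases -238 (MXD4), -193 (MNT) and -50 (MLX) of the E-box. The positions are chr4:2262330-2262359 on the minus strand for MXD4, chr17:2401236-2401265 on the minus strand for MNT and chr17:42567038-42567067 on the plus strand for MLX.
MXD4: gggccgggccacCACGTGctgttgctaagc
MNT: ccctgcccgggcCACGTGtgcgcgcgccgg
MLX: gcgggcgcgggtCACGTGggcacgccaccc

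The related core CACGCG, searched on both strands, was found in 1 promoter each of MXD3, MXI1 and MGA, and in 11.43% of all promoters. A match of letters is not a measured binding site. Of the 3 genes with CACGTG, MXD4 rose and MNT and MLX fell with CPI203, as given below for each. A link between motif and response was not tested.

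The summed RPKM, which is already scaled to library size, ran from 484019 to 501281 per library. Depth, estimated from the steps of low values, ran from 26000000 to 50100000 reads and was highest in the SGC-CBP30 libraries. These steps gave whole reads, within 0.1 read, for 60.6% to 73.2% of the values used, so the depth is an estimate. The lowest value of any of the 10 genes then rests on about 429 reads, a counting error of 4.83%. Of 9 plasma cell markers all were above 1 RPKM, and of 10 markers of other cells only HBB was tested, at 0.773 to 3.55 RPKM, while PAX5, MPO and EPCAM were listed at 0 in every library. HBB was at 0.773 to 1.31 RPKM in the SGC-CBP30 experiment and 1.06 to 3.55 RPKM in the CPI203 experiment. CD3D was at 0 in every library of the SGC-CBP30 experiment and at 0.375 to 0.499 RPKM in the CPI203 experiment. CD3E was at 0 to 0.0226 RPKM and 0.0805 to 0.180 RPKM. MS4A1 went the other way, at 0.0215 to 0.0450 RPKM in the SGC-CBP30 experiment and 0 in the CPI203 experiment. The part of these genes in differences between the experiments was not tested. Of the 9 plasma cell markers 7 fell with SGC-CBP30 (14.8% of all genes tested fell), and with CPI203 8 fell and 1 rose (33.1% and 31.1% of all genes).

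Before any compound effect, the DMSO libraries show an unequal network. MYC stood far above the rest, at 288 ± 11.1 RPKM (SD, n = 2) in the DMSO pair of the SGC-CBP30 experiment and 243 ± 5.21 RPKM (n = 2) in that of the CPI203 experiment. Its obligate partner MAX was at 39.1 ± 1.63 and 37.8 ± 1.41 RPKM. The levels of MXI1, MAX and MLX lay between 36.4 and 51.1 RPKM in the 4 DMSO libraries, MXD4 and MLXIP between 9.74 and 14.3 RPKM, and MXD1, MXD3, MNT and MGA between 3.55 and 7.05 RPKM. These 3 tiers did not overlap, but within the lowest tier neighbouring genes overlapped in the first experiment and the order of MXD3 and MGA differed between experiments. MXI1 was therefore the most abundant MXD transcript in every library.

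**Figure D1:**
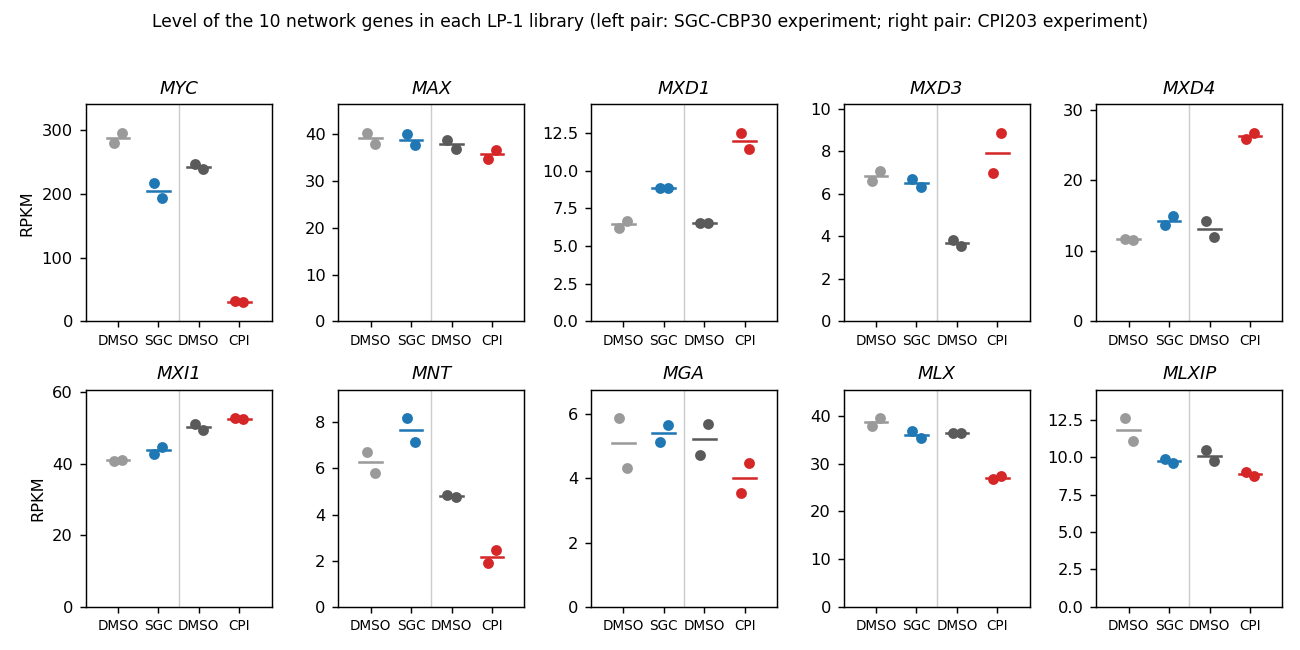
Each panel plots the RPKM of 1 network gene (vertical axis, from 0) in the 8 LP-1 libraries, with points for libraries and bars for the mean of 2. From left to right stand the DMSO and SGC-CBP30 pairs of the first experiment and the DMSO and CPI203 pairs of the second. MYC falls from 243 to 31.2 RPKM with CPI203 and from 288 to 205 RPKM with SGC-CBP30, MAX stays between 34.7 and 40.3 RPKM, and MXD3 differs between the DMSO pairs.

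With SGC-CBP30, 4 of the 10 genes changed at an adjusted p under 0.05 (limma, Benjamini-Hochberg over 14732 genes). MXD1 and MXD4 rose, and MYC and MLXIP fell. Among all genes tested 25.6% rose and 14.8% fell, so the count of network genes is near the background, and none of the 10 reached a 1.5-fold change at that adjusted p, against 7.26% of all genes. Of these 4 changes only those of MYC and MXD1 passed under all 18 alternative settings. The median log2 fold change of the 10 was 0.04, beside 0.07 for all genes. With CPI203, 6 of the 10 changed. MXD1, MXD3 and MXD4 rose, against 31.1% of all genes, and MYC, MNT and MLX fell, against 33.1% of all genes. The share of genes changed is again near the background. At 1.5-fold or more, the 3 MXD genes were higher, against 13.4% of all genes, and MYC and MNT lower, against 14.4%. The median log2 fold change of the 10 was -0.13, beside -0.01 for all genes.

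**Figure D2:**
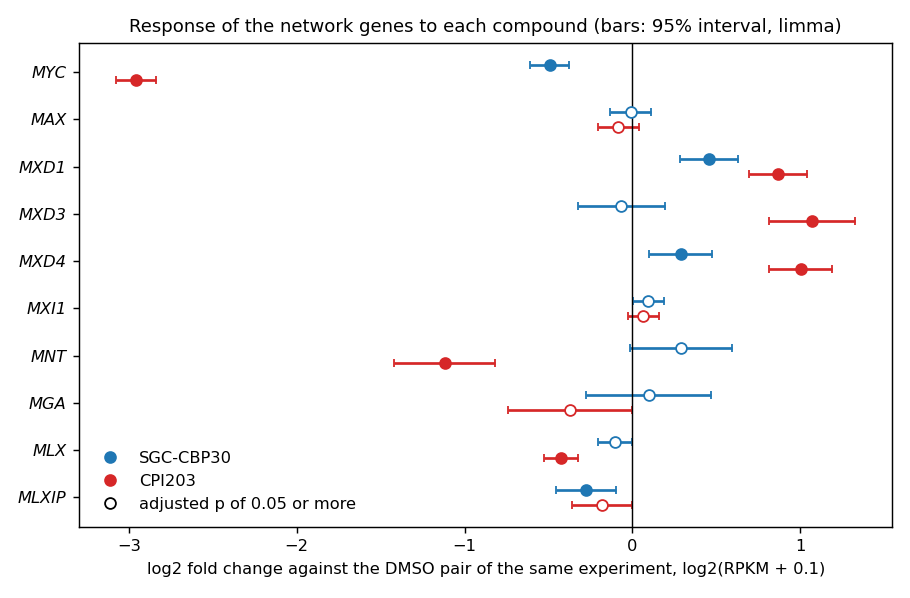
Log2 fold changes of the 10 network genes on the log2(RPKM + 0.1) scale (horizontal axis) for SGC-CBP30 (blue) and CPI203 (red), each against the DMSO pair of its experiment, with bars for the 95% interval of limma. Open points had an adjusted p of 0.05 or more. MYC at -2.96 with CPI203 lies far to the left of every other value, and MNT goes from 0.29 with SGC-CBP30 to -1.12 with CPI203.

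MYC (ENSG00000136997, chr8:128747679-128753674, hg19) was lower with both compounds, and with CPI203 its change was the largest of the 10. With SGC-CBP30 its fitted change was close in size to the rise of MXD1. In the SGC-CBP30 experiment its level was 281 and 296 RPKM with DMSO and 217 and 193 RPKM with the compound. In the CPI203 experiment it was 247 and 240 RPKM with DMSO and 31.5 and 30.9 RPKM with the compound. Both compound pairs lay below both libraries of their DMSO pair, and the SGC-CBP30 libraries also lay below the other DMSO pair. Its log2 fold change was -0.49 ± 0.05 (SE) with SGC-CBP30 (limma, adjusted p = 0.000124), a level 0.71 times that with DMSO. With CPI203 it was -2.96 ± 0.05 (limma, adjusted p = 4.97e-10), a level 0.129 times that with DMSO. Among the 14732 genes tested, 797 fell by more than MYC with SGC-CBP30 and 26 with CPI203. In bulk RNA fewer cells with a transcript and less of it per cell cannot be told apart.

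MAX (ENSG00000125952, chr14:65472891-65569413), the shared dimer partner, hardly moved. It was at 40.3 and 38.0 RPKM with DMSO and 39.9 and 37.7 RPKM with SGC-CBP30. In the CPI203 experiment it was at 38.8 and 36.8 RPKM with DMSO and 34.7 and 36.7 RPKM with CPI203. The SGC-CBP30 pair overlapped its DMSO pair, and the CPI203 pair lay just below its own. Fitted log2 fold changes were -0.01 with SGC-CBP30 (95% interval -0.13 to 0.11) and -0.08 with CPI203 (95% interval -0.20 to 0.04). Neither passed the test (limma, adjusted p = 0.888 and 0.196), and both intervals leave out a change of 1.5-fold.

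MXD1 (ENSG00000059728, chr2:70124819-70170077), also known as MAD1 and the founding MAX-binding antagonist of MYC, rose with both compounds. Its levels were 6.17 and 6.69 RPKM with DMSO against 8.88 and 8.85 RPKM with SGC-CBP30. They were 6.52 and 6.52 RPKM with DMSO against 12.5 and 11.5 RPKM with CPI203. The DMSO pairs were alike and no treated library overlapped any DMSO library. Its log2 fold change was 0.46 ± 0.08 with SGC-CBP30 (limma, adjusted p = 0.00153) and 0.87 ± 0.08 with CPI203 (limma, adjusted p = 6.22e-06). These are levels of 1.37 and 1.82 times those with DMSO. MXD1 passed the test for both compounds under all 18 alternative settings.

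MXD4 (ENSG00000123933, chr4:2249158-2264021), another MXD repressor that holds the E-box printed above, was at 11.7 and 11.6 RPKM with DMSO and 13.7 and 14.9 RPKM with SGC-CBP30. In the CPI203 experiment it was at 14.3 and 12.0 RPKM with DMSO and 25.8 and 26.8 RPKM with the compound. The CPI203 libraries stood well above all others, whereas 1 SGC-CBP30 library lay below the higher DMSO library of the other experiment. The log2 fold change with CPI203 was 1.00 ± 0.08 (limma, adjusted p = 4.24e-06). With SGC-CBP30 it was 0.29 ± 0.08 (limma, adjusted p = 0.0220), and this call is not stable. It was lost with median scaling (limma, adjusted p = 0.0818) or quantile normalization (limma, adjusted p = 0.105). Leaving out DMSO replicate 1, DMSO replicate 2 or SGC-CBP30 replicate 2 also ended it (limma, adjusted p = 0.0709, 0.0898 and 0.146).

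MXD3 (ENSG00000213347, chr5:176728461-176739758), an MXD protein linked to S phase in proliferating cells, differed between the DMSO pairs. It was at 6.60 and 7.05 RPKM in the DMSO pair of the SGC-CBP30 experiment and at 3.85 and 3.55 RPKM in that of the CPI203 experiment. With SGC-CBP30 it was at 6.70 and 6.34 RPKM, which overlaps its DMSO pair, and the log2 fold change was -0.07 (95% interval -0.32 to 0.19). With CPI203 it was at 6.99 and 8.87 RPKM, above its own DMSO pair but overlapping the DMSO pair of the SGC-CBP30 experiment. The log2 fold change with CPI203 was 1.07 ± 0.12 against its own DMSO pair (limma, adjusted p = 2.37e-05) and 0.64 against all 4 DMSO libraries, where the call was lost (limma, adjusted p = 0.0933).

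MXI1 (ENSG00000119950, chr10:111967362-112047123), the most abundant MXD transcript, did not pass the test with either compound. Its levels were 40.7 and 41.1 RPKM with DMSO and 42.7 and 44.6 RPKM with SGC-CBP30, and then 51.1 and 49.3 RPKM with DMSO and 52.7 and 52.4 RPKM with CPI203. In both experiments the treated pair lay just above its DMSO pair, by log2 fold changes of 0.10 (95% interval 0.0024 to 0.19) and 0.07 (95% interval -0.03 to 0.16), with limma adjusted p = 0.0944 and 0.195. The experiments differed more than the treatments did, since the first DMSO pair was lower than the second by 0.30 on the log2 scale.

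MNT (ENSG00000070444, chr17:2287353-2304412), the broadly expressed MAX partner that represses E-box genes and the second with CACGTG in its promoter window, gave fitted changes of opposite sign. It was at 6.70 and 5.81 RPKM with DMSO and 8.18 and 7.13 RPKM with SGC-CBP30. For CPI203 the levels were 4.85 and 4.75 RPKM with DMSO and 1.89 and 2.45 RPKM with the compound. Neither treated pair overlapped its DMSO pair, and the CPI203 libraries were the lowest of the 8. On the log2 scale the change with CPI203 was -1.12 ± 0.13 (limma, adjusted p = 5.21e-05), a level 0.46 times that with DMSO. With SGC-CBP30 it was 0.29 ± 0.13 and did not pass the test (limma, adjusted p = 0.118).

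MGA (ENSG00000174197, chr15:41913421-42062141), whose protein is a large scaffold with a T-box as well as a MAX-binding domain, gave no change that passed the test. Its levels were 5.87 and 4.33 RPKM with DMSO, 5.14 and 5.66 RPKM with SGC-CBP30, 4.72 and 5.69 RPKM with DMSO of the CPI203 experiment and 3.55 and 4.48 RPKM with CPI203. It was the most variable of the 10 between replicates. The log2 fold changes were 0.10 ± 0.16 with SGC-CBP30 and -0.37 ± 0.16 with CPI203, the latter with a 95% interval of -0.74 to -0.0011 (limma, adjusted p = 0.677 and 0.0735). The CPI203 value moved past the threshold without CPI203 replicate 2, at -0.54 (limma, adjusted p = 0.0354), and without either DMSO library of the other experiment.

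MLX (ENSG00000108788, chr17:40719085-40725257), the third gene with CACGTG, was at 38.0 and 39.6 RPKM with DMSO and 36.9 and 35.3 RPKM with SGC-CBP30. For CPI203 the levels were 36.4 and 36.4 RPKM with DMSO and 26.8 and 27.4 RPKM with the compound. CPI203 libraries were clearly the lowest, with a log2 fold change of -0.43 ± 0.05 (limma, adjusted p = 2.13e-05), a level 0.744 times that with DMSO. With SGC-CBP30 the log2 fold change was -0.10 ± 0.05 (limma, adjusted p = 0.0957), and it passed the test only with median scaling (-0.18, limma adjusted p = 0.0134) or quantile normalization (-0.14, limma adjusted p = 0.0325).

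MLXIP (ENSG00000175727, chr12:122516627-122629266), the glucose-responsive partner of MLX, was at 12.6 and 11.1 RPKM with DMSO and 9.89 and 9.63 RPKM with SGC-CBP30, and at 10.5 and 9.74 RPKM with DMSO and 9.06 and 8.75 RPKM with CPI203. Each treated pair lay below its own DMSO pair. Fitted log2 fold changes were -0.28 ± 0.08 with SGC-CBP30 (limma, adjusted p = 0.0214) and -0.18 ± 0.08 with CPI203 (limma, adjusted p = 0.0693). The SGC-CBP30 call was lost without DMSO replicate 1 (-0.18, limma adjusted p = 0.150), without SGC-CBP30 replicate 1 (-0.29, limma adjusted p = 0.0657) and without SGC-CBP30 replicate 2 (-0.26, limma adjusted p = 0.110). Against all 4 DMSO libraries the SGC-CBP30 call was also lost (-0.16, limma adjusted p = 0.305), whereas the CPI203 value passed the test (-0.29, limma adjusted p = 0.0399). The ratio of MLX to MLXIP transcripts was 3.29 ± 0.40 and 3.70 ± 0.04 in the DMSO and SGC-CBP30 pairs and 3.60 ± 0.20 and 3.04 ± 0.13 in the DMSO and CPI203 pairs (SD, n = 2).

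Since RPKM is per length, transcripts of MAX partners can be summed. The sum was taken over 7 of them, MYC, MXD1, MXD3, MXD4, MXI1, MNT and MGA. MYC made up 78.3% and 79.5% of that sum with DMSO and 71.8% and 68.8% with SGC-CBP30. The CPI203 experiment gave 74.3% and 74.5% with DMSO and 23.3% and 22.5% with CPI203. The difference in MYC share, compound minus DMSO, was -8.57 percentage points with SGC-CBP30 (pooled SD 1.6) and -51.5 points with CPI203 (pooled SD 0.423), and in neither experiment did the pairs overlap. No test was run on this share. The MYC paralogs MYCN and MYCL were left out of the sum, so it does not cover the whole MYC family. MYCN had means of 8.32 RPKM with DMSO and 3.52 RPKM with SGC-CBP30. In the CPI203 experiment its means were 6.34 RPKM with DMSO and 4.96 RPKM with CPI203. The share with MYCN included was not computed.

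The other 6 partners together rose from 77.2 ± 0.892 to 86.4 ± 1.57 RPKM in the means of the SGC-CBP30 experiment and from 83.6 ± 2.51 to 104.9 ± 2.10 RPKM in those of the CPI203 experiment (SD, n = 2). Apart from MXI1, which held 49.2% to 60.3% of this sum, the means went from 36.3 to 42.7 RPKM and from 33.4 to 52.4 RPKM. On the RPKM scale the ratio of MYC to MAX had a mean of 7.38 ± 0.592 with DMSO and 5.28 ± 0.223 with SGC-CBP30. The ratio was 6.43 ± 0.102 with DMSO and 0.876 ± 0.045 with CPI203, so that MAX exceeded MYC in both CPI203 libraries. There MXI1 was the most abundant of the 10, followed by MAX, MYC and MLX, while MLX and MXD4 overlapped between libraries. These are transcript levels, and protein levels were not analysed here.

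**Figure D3:**
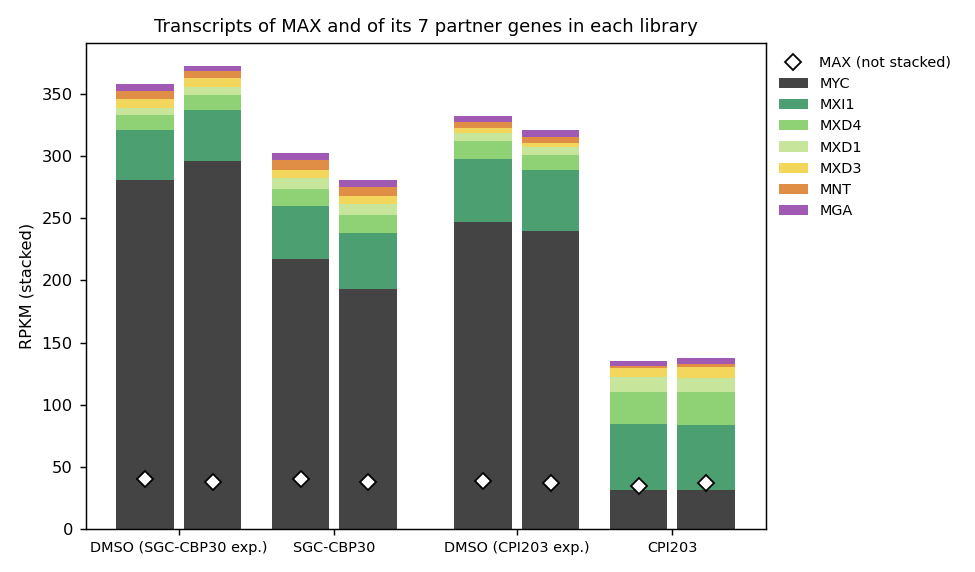
Stacked bars give the RPKM of 7 genes whose proteins pair with MAX, with MYCN and MYCL left out. There is 1 bar per library and 2 libraries per group, and diamonds give the RPKM of MAX itself. The dark MYC segment makes up 68.8% to 79.5% of the bar in the DMSO and SGC-CBP30 libraries and 22.5% and 23.3% in the CPI203 libraries, where the MAX diamond lies above it.

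The responses to the compounds were then compared directly, as the SGC-CBP30 effect minus the CPI203 effect in 1 fit over all 8 libraries. They differed for 6 of the 10 genes, against 50.3% of all genes tested. The differences on the log2 scale were 2.47 ± 0.07 for MYC (limma, adjusted p = 1.04e-07), 1.41 ± 0.19 for MNT (limma, adjusted p = 0.000228) and 0.32 ± 0.06 for MLX (limma, adjusted p = 0.00222), each with the lower fold change under CPI203. For MXD1 it was -0.41 ± 0.11, for MXD3 -1.14 ± 0.16 and for MXD4 -0.71 ± 0.12 (limma, adjusted p = 0.0110, 0.000320 and 0.000789), each with the higher fold change under CPI203. The 95% intervals of the difference were -0.10 to 0.24 for MAX, -0.10 to 0.16 for MXI1, -0.06 to 0.99 for MGA and -0.35 to 0.16 for MLXIP.

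The DMSO pairs themselves differed for 4 of the 10 genes, against 41.7% of all genes. In the SGC-CBP30 experiment MYC was higher by 0.25 ± 0.05 (limma, adjusted p = 0.0049), MXD3 by 0.87 ± 0.12 (limma, adjusted p = 0.000370) and MLXIP by 0.22 ± 0.08 (limma, adjusted p = 0.0472) on the log2 scale. MXI1 was lower, at -0.30 ± 0.04 (limma, adjusted p = 0.000482). For MXD3 and MXI1 this difference between vehicle pairs exceeds in size the SGC-CBP30 effect, and for MYC it is less than that effect. The MLXIP difference was lost under 9 of 14 alternative settings, among them each left-out library but DMSO replicate 2 of the SGC-CBP30 experiment, and that of MYC under 1 of 14, without a filter (limma, adjusted p = 0.059). MNT, at 0.37 ± 0.13, did not pass (limma, adjusted p = 0.0509) but did so under 6 alternatives (0.32 to 0.41, limma adjusted p = 0.0233 to 0.0449), among them median scaling and the fits without CPI203 replicate 1 or 2. MXD4 passed without DMSO replicate 2 of the CPI203 experiment (-0.29, limma adjusted p = 0.0209).

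Other genes that belong to the network were low or behaved in their own way. MYCN, the neuronal paralog of MYC, was at 7.88 and 8.77 RPKM with DMSO and 3.56 and 3.48 RPKM with SGC-CBP30, and at 6.17 and 6.52 RPKM with DMSO and 4.63 and 5.28 RPKM with CPI203. It fell more with SGC-CBP30, at a log2 fold change of -1.22 ± 0.10 (limma, adjusted p = 2.40e-05), than with CPI203, at -0.35 ± 0.10 (limma, adjusted p = 0.0101), and the difference between the responses was -0.87 ± 0.14 (limma, adjusted p = 0.000632). The CPI203 call of MYCN was lost without DMSO replicate 2 of that experiment (-0.31, limma adjusted p = 0.0546) and without CPI203 replicate 1 (-0.26, limma adjusted p = 0.0780), and the fold change was -0.54 against all 4 DMSO libraries. MYCL and MLXIPL, the paralogs that complete the family, had means under 1 RPKM and were not tested.

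Neighbouring and upstream genes of MYC gave contrasting values. PVT1, a long non-coding RNA gene next to MYC, went from 63.0 ± 0.766 to 49.8 ± 2.97 RPKM with SGC-CBP30 and from 59.4 ± 0.035 to 15.2 ± 1.25 RPKM with CPI203, log2 fold changes of -0.34 and -1.96 (limma, adjusted p = 0.00211 and 1.27e-08). IRF4, a transcription factor of the plasma cell lineage that is known to activate MYC in myeloma, went from 213 ± 2.69 to 82.8 ± 4.72 RPKM with SGC-CBP30 and from 228 ± 0.321 to 202 ± 0.830 RPKM with CPI203. Its log2 fold changes were -1.36 ± 0.04 and -0.17 ± 0.04 (limma, adjusted p = 8.65e-08 and 0.00319). The CPI203 call of IRF4 was lost against all 4 DMSO libraries (limma, adjusted p = 0.0834). The order was therefore reversed between IRF4 and MYC. The response difference was -1.19 ± 0.05 for IRF4 (limma, adjusted p = 4.48e-07) and 2.47 for MYC.

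Genes that MYC is known to activate (nucleolar, ribosome assembly, nucleotide synthesis and cell cycle genes) fell nearly as a group with CPI203. Of 29 listed, 28 were tested, 26 fell (against 33.1% of all genes) and none rose (against 31.1%). A fall of at least 1.5-fold was seen for 14 (against 14.4%), and the median log2 fold change was -0.58 beside -0.01 for all genes. With SGC-CBP30, 13 fell and 3 rose, against 14.8% and 25.6% of all genes, with a median of -0.11 beside 0.07. The responses differed for 23, against 50.3% of all genes, each with the lower fold change under CPI203. A fall of at least 1.5-fold with SGC-CBP30 was seen for 1 gene, CCND2, against 7.26% of all genes changed in either direction. CCND2 fell about alike with both compounds, at -0.97 with SGC-CBP30 and -0.96 with CPI203 (limma, adjusted p = 4.11e-06 and 5.88e-07). TFAP4, an E-box factor known as a direct MYC target, went from 18.3 ± 0.087 to 1.92 ± 0.619 RPKM with CPI203 (log2 fold change -3.22 ± 0.16, limma adjusted p = 1.61e-07) and from 26.5 ± 1.38 to 21.9 ± 0.788 RPKM with SGC-CBP30, which did not pass the test (log2 fold change -0.28, limma adjusted p = 0.195). That value passed without CPI203 replicate 1 or 2 (limma, adjusted p = 0.00839 and 0.00907) and in a separate fit of the SGC-CBP30 experiment (limma, adjusted p = 0.00715). NOP16, a nucleolar protein gene, had 69.8 ± 2.25 RPKM with DMSO and 12.7 ± 0.591 RPKM with CPI203 (log2 fold change -2.45 ± 0.05, limma adjusted p = 1.24e-09). POLR1B, a subunit of RNA polymerase I, was at 21.0 ± 1.54 and 5.21 ± 0.569 RPKM in that experiment, a change of -1.99 ± 0.08, and CDK4, a cell cycle kinase, at 238 ± 1.61 and 140.3 ± 0.593 RPKM, a change of -0.76 ± 0.04 (limma, adjusted p = 5.32e-08 and 1.54e-07). With SGC-CBP30 NOP16 and CDK4 fell by less, at -0.20 and -0.17 (limma, adjusted p = 0.0137 and 0.00547), and POLR1B was at 0.07 (limma, adjusted p = 0.532). The SGC-CBP30 calls of NOP16 and CDK4 were lost without SGC-CBP30 replicate 2 (limma, adjusted p = 0.0799 and 0.0534), and that of NOP16 also without SGC-CBP30 replicate 1 or DMSO replicate 2 (limma, adjusted p = 0.0512 and 0.106). Against all 4 DMSO libraries neither passed (limma, adjusted p = 0.687 for CDK4 and 0.0656 for NOP16).

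Genes that MYC is known to repress gave more rises with CPI203 and more falls with SGC-CBP30. Of 11 listed, 9 were tested. With CPI203, 7 rose and 1 fell, against 31.1% and 33.1% of all genes, with a median log2 fold change of 0.53 beside -0.01. With SGC-CBP30, 1 rose and 5 fell, against 25.6% and 14.8%, with a median of -0.16 beside 0.07. The responses differed for all 9, against 50.3% of all genes, and 8 of these had the higher fold change under CPI203. CDKN1A, the cell cycle inhibitor p21, was at 0.217 and 0.121 RPKM with DMSO and 6.17 and 6.57 RPKM with CPI203 (log2 fold change 4.61 ± 0.29, limma adjusted p = 6.43e-07). The size of this change depends on the pseudocount, since the DMSO values are near it, and was 2.66 with a pseudocount of 1. With SGC-CBP30 CDKN1A was low throughout, at 0.229 and 0.233 RPKM against 0.174 and 0.175 RPKM. CDKN2B, the inhibitor p15, fell from 22.8 ± 0.864 to 9.01 ± 0.561 RPKM with SGC-CBP30 (log2 fold change -1.33 ± 0.06, limma adjusted p = 1.03e-06) and was at 18.2 ± 0.043 and 19.2 ± 0.693 RPKM in the CPI203 experiment (limma, adjusted p = 0.313). GADD45A, a growth arrest gene, went from 4.96 ± 0.431 to 10.9 ± 0.555 RPKM with CPI203 (limma, adjusted p = 3.60e-06).

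**Figure D4:**
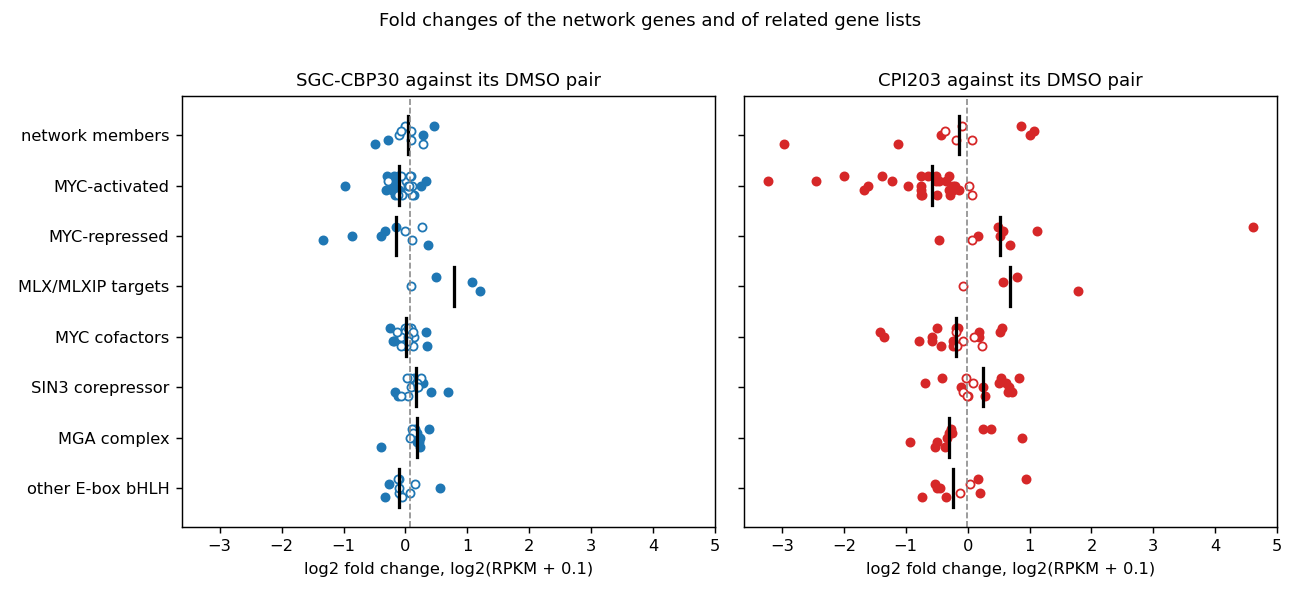
Log2 fold changes on the log2(RPKM + 0.1) scale (horizontal axis) of every tested gene of 8 lists for SGC-CBP30 (left) and CPI203 (right), with filled points for an adjusted p under 0.05 (limma). Black bars mark list medians and dashed lines the median of all 14732 genes. The MYC-activated genes have medians of -0.11 and -0.58, and the MLX and MLXIP targets 0.79 and 0.68.

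Targets of the MLX and MLXIP dimer rose with both compounds against their own DMSO pairs, with 3 of 4 higher each time, against 25.6% of all genes with SGC-CBP30 and 31.1% with CPI203. The medians were 0.79 and 0.68, beside 0.07 and -0.01 for all genes. TXNIP, which encodes a thioredoxin-binding arrestin that limits glucose uptake and is the best known MLXIP target, was at 11.7 and 13.4 RPKM with DMSO and 27.9 and 30.1 RPKM with SGC-CBP30. In the CPI203 experiment it was at 35.0 and 36.1 RPKM with DMSO and 122.8 and 122.5 RPKM with the compound. The fitted changes of MLX and MLXIP themselves were negative with both compounds. In the main fit they passed the test only for MLX with CPI203 and MLXIP with SGC-CBP30. Their part in the changes of these targets was not tested. For TXNIP the log2 fold changes were 1.20 ± 0.06 and 1.78 ± 0.06 (limma, adjusted p = 1.91e-06 and 2.78e-08). The SGC-CBP30 libraries lay below the DMSO pair of the CPI203 experiment, since the DMSO pairs differed by -1.50 ± 0.06 (limma, adjusted p = 2.42e-07), and against all 4 DMSO libraries the SGC-CBP30 call was lost (limma, adjusted p = 0.527). The related arrestin gene ARRDC4 went from 0.870 ± 0.030 to 1.95 ± 0.096 RPKM with SGC-CBP30 and from 2.22 ± 0.008 to 3.34 ± 0.107 RPKM with CPI203, log2 fold changes of 1.08 and 0.57 (limma, adjusted p = 0.000332 and 0.00470). The former was 0.66 with a pseudocount of 1, and the latter 1.20 against all 4 DMSO libraries. ARRDC3 went from 7.55 ± 0.766 to 10.6 ± 0.423 RPKM and from 9.60 ± 0.312 to 16.7 ± 0.978 RPKM (limma, adjusted p = 0.00172 and 2.21e-05). The SGC-CBP30 calls of ARRDC4 and ARRDC3 were also lost against all 4 DMSO libraries (limma, adjusted p = 0.466 and 0.143).

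The machinery with which the network proteins work was mixed. Of 21 genes for MYC cofactors and MYC turnover, 20 were tested. With CPI203, 4 rose and 11 fell, against 31.1% and 33.1% of all genes (median -0.19 beside -0.01). With SGC-CBP30, 2 rose and 4 fell, against 25.6% and 14.8% (median 0.02 beside 0.07). HCFC1, a chromatin cofactor that binds MYC, went from 27.1 ± 1.54 to 10.1 ± 0.560 RPKM with CPI203 and was at 39.6 ± 1.22 and 39.5 ± 1.75 RPKM in the SGC-CBP30 experiment. USP36, a nucleolar deubiquitinase that stabilizes MYC, went from 36.8 ± 0.986 to 14.3 ± 0.432 RPKM with CPI203, and KAT2A, the acetyltransferase GCN5, from 45.2 ± 0.915 to 26.1 ± 1.78 RPKM. These 3 changes with CPI203 were -1.41, -1.36 and -0.79 on the log2 scale (limma, adjusted p = 8.24e-08, 4.09e-08 and 8.25e-07). With SGC-CBP30 the fitted changes of HCFC1 and USP36 were -0.0046 and 0.05 (limma, adjusted p = 0.961 and 0.522), and KAT2A fell, at -0.19 (limma, adjusted p = 0.0140). This KAT2A call was lost without DMSO replicate 1, DMSO replicate 2 or SGC-CBP30 replicate 2 (limma, adjusted p = 0.0595, 0.0607 and 0.0946) and against all 4 DMSO libraries (-0.06, limma adjusted p = 0.732).

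Of 17 genes for the SIN3 corepressor that MXD proteins and MNT recruit, all were tested. With SGC-CBP30, 6 rose and 2 fell, against 25.6% and 14.8% of all genes (median 0.17 beside 0.07). With CPI203, 9 rose and 3 fell, against 31.1% and 33.1% (median 0.24 beside -0.01). SAP30L, a SIN3-associated subunit, rose with both, from 10.9 ± 0.494 to 14.5 ± 0.250 RPKM and from 12.1 ± 0.070 to 19.9 ± 1.22 RPKM (limma, adjusted p = 0.00105 and 7.14e-06). ARID4A, a DNA-binding subunit, went from 5.27 ± 0.090 to 9.47 ± 1.01 RPKM with CPI203 (limma, adjusted p = 8.46e-05). SUDS3, a subunit that aids dimerization of the complex, fell from 17.4 ± 0.847 to 10.8 ± 0.093 RPKM (limma, adjusted p = 5.68e-06).

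All 11 genes of the Polycomb-type complex that holds MGA were tested. With SGC-CBP30, 7 rose and 1 fell, against 25.6% and 14.8% of all genes (median 0.18 beside 0.07). With CPI203, 3 rose and 8 fell, against 31.1% and 33.1% (median -0.30 beside -0.01). L3MBTL2, a histone-binding subunit, was at 19.6 ± 0.343 and 10.2 ± 0.092 RPKM with DMSO and CPI203, and PCGF6, the ring finger subunit that defines the complex, at 11.0 ± 0.571 and 7.60 ± 0.275 RPKM (limma, adjusted p = 9.26e-07 and 9.99e-05). RYBP, a subunit shared with other Polycomb complexes, went up from 13.2 ± 0.103 to 24.4 ± 0.413 RPKM (limma, adjusted p = 8.35e-07). With SGC-CBP30 the calls of L3MBTL2 and PCGF6, at 0.22 and 0.23 on the log2 scale, were lost with median scaling (limma, adjusted p = 0.108 and 0.111) and without DMSO replicate 1 (limma, adjusted p = 0.106 and 0.113) or SGC-CBP30 replicate 1 (limma, adjusted p = 0.161 and 0.139). PCGF6 also lost the call without DMSO replicate 2 or SGC-CBP30 replicate 2 (limma, adjusted p = 0.0675 and 0.0754).

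Other helix-loop-helix factors that bind E-boxes gave 3 higher and 5 lower among 10 tested of 14 with CPI203 (median -0.23 beside -0.01). With SGC-CBP30, 1 was higher and 2 lower (median -0.11 beside 0.07). Among all genes 31.1% were higher and 33.1% lower with CPI203, and 25.6% and 14.8% with SGC-CBP30. The lower count with CPI203 is above its background share, and the other counts are near or below theirs. TCF3, the E protein of the B lineage, fell with both, from 196 ± 2.46 to 157 ± 6.85 RPKM with SGC-CBP30 and from 171 ± 6.23 to 103 ± 3.79 RPKM with CPI203 (limma, adjusted p = 0.000404 and 4.45e-07). Its SGC-CBP30 call was lost against all 4 DMSO libraries (limma, adjusted p = 0.0843). The circadian factor ARNTL went from 15.2 ± 0.455 to 29.5 ± 0.352 RPKM with CPI203 (limma, adjusted p = 7.62e-07). Its partner CLOCK, at 2.07 to 3.89 RPKM in all libraries, passed the test upward with SGC-CBP30 and downward with CPI203 (limma, adjusted p = 0.0197 and 0.0333), but both calls were lost without either compound library of the respective experiment.

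The transcripts whose pattern over the 8 libraries was most like that of MYC were RUVBL1 (Pearson r = 0.9995), GTPBP4 (0.998), ENAM (0.998), LETM1 (0.998) and CTD-2008A1.2 (0.998), compared over the 8298 genes whose mean reached 10 RPKM. The correlation was taken on log2(RPKM + 0.1), and as the 2 CPI203 libraries stand apart it mostly describes those. RUVBL1, an ATPase that is also a MYC cofactor, was at 152 and 156 RPKM with DMSO and 147 and 142 RPKM with SGC-CBP30, and at 151 and 149 RPKM with DMSO and 101 and 100.4 RPKM with CPI203. LETM1, a mitochondrial membrane protein gene, had log2 fold changes of -0.27 and -1.73, and GTPBP4, a nucleolar GTPase gene, of -0.12 and -0.94.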

How the data were processed

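The values are RPKM as the authors deposited them for each gene in each library, made by a service provider from total RNA. The submitters' processing notes name TopHat 1.4.1, Cufflinks and the build hg19, and gene positions are those of the deposited annotation. Such values share out reads of overlapping genes by a model, so levels of antisense or overlapping neighbours are uncertain. The paper's methods compare RPKM with compound and with DMSO as log2 fold changes. The table holds 24 further columns of libraries outside these samples, which were not used. Genes with a missing value in any library (27) were left out, and 14732 genes whose mean reached 1 RPKM were tested.

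The fit used log2(RPKM + 0.1) with no further scaling, a scale that understates changes of low genes. limma 3.58.1 in R 4.3.3 (lmFit, contrasts, eBayes with trend) was used to fit the 4 group means. The 8 libraries leave 4 residual degrees of freedom, to which the prior adds 5.48. Benjamini-Hochberg adjustment ran over all genes tested. The paper states that compound replicates were normalized to paired DMSO controls, but the main fit did not pair libraries. The correlation of same-numbered deviations was -0.172 in the SGC-CBP30 experiment and -0.0395 in the CPI203 experiment. These values cannot show whether samples were paired, since paired samples need not share deviations. The fit was tested on simulated data. The network genes and the related lists were chosen with earlier results of these data known, so counts over them are descriptions. From each list the 3 genes with the largest change past the threshold were named, with TXNIP, ARRDC4, CDKN1A, CDK4, PVT1 and IRF4 in any case, and the 5 genes most like MYC by Pearson correlation. Depth was estimated from values under 0.5 RPKM of genes with 1 transcript of at least 800 bases in GENCODE release 29. Counting errors cover counting only. As alternatives the pseudocount was set to 1, the filter to 5 RPKM or to none, and the scaling to library medians or quantile normalization. Further fits took all 4 DMSO libraries as controls, a replicate block, each experiment separately, no trend of the spread with intensity, or left out each library in turn. A crossed replicate block was added after seeing the data. Tables and figures were made with Python 3.11.15, pandas 2.3.3, numpy 2.4.6 and matplotlib 3.10.9.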

Additional observations from a re-analysis of the deposited data

Results flagged for a closer look

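The response to SGC-CBP30 differed from the response to CPI203, by the interaction contrast of limma over all 8 libraries, for 6 of the 10 network genes. The difference of log2 fold changes, SGC-CBP30 minus CPI203, was 2.465 for MYC, 1.407 for MNT and 0.3227 for MLX, and -0.4089 for MXD1, -1.136 for MXD3 and -0.7148 for MXD4. All 6 passed the test under each of the 16 alternatives tried for them. The fit with all 4 DMSO libraries as controls gives no such contrast and is not among the 16. In that fit the log2 fold changes of MXD3 were 0.37 with SGC-CBP30 and 0.64 with CPI203. The MXD3 difference rests on DMSO pairs that themselves differed by 0.87 on the log2 scale. Groups of 2 libraries are too small for a check of single outlying libraries.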

How the results depend on the processing

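Among the network genes, the changes of MYC and MXD1 with SGC-CBP30 and those of MYC, MXD1, MXD4, MNT and MLX with CPI203 kept their direction and passed the test under all 18 alternatives. Many alternatives could not change the direction. Leaving out a library of the other experiment, the replicate blocks, the filters, no trend and separate fits keep a compound's fold change and alter only its p-value. The log2 fold change ran from -0.58 to -0.37 for MYC with SGC-CBP30 and from -3.08 to -2.89 with CPI203. The call was lost under 8 of 18 alternatives for MXD4 and 5 of 18 for MLXIP with SGC-CBP30, and under 1 of 18 (all 4 DMSO libraries as controls) for MXD3 with CPI203. The network genes changed with SGC-CBP30 numbered 2 without a filter and 2 with all 4 DMSO libraries as controls, and 2 to 4 with a library left out, with 2 without DMSO replicate 1 or SGC-CBP30 replicate 2. With CPI203 the count was 6 to 8 with a library left out. The DMSO pairs differed for 2 without a filter, where more genes are tested, for 5 with a pseudocount of 1, a filter of 5 RPKM, median scaling or quantile normalization, MNT being the added gene, and for 3 to 4 with a library left out. With a replicate block 4 genes changed with SGC-CBP30 and 7 with CPI203, MGA being the added gene (limma, adjusted p = 0.0467), and with the crossed replicate block 4 and 6. The replicate block and the crossed pairing left 6 genes with different responses. The loss of MYC share was -5.89 points with SGC-CBP30 and -47.8 with CPI203 when MXD1, MXD4 and MNT were left out of the sum, -52.0 with CPI203 when MGA was, and -10.1 to -7.09 and -51.9 to -51.1 with a library left out.

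Of 1947 further values under an alternative, 1808 kept their direction and their side of the threshold, 85 lost the call, 28 gained it and 26 turned sign. These counts include the alternatives that could not change a fold change. None of the 26 passed the test in the alternative, and the cause was not tested. With all 4 DMSO libraries as controls the SGC-CBP30 values were 0.013 for MAX, 0.37 for MXD3, -0.053 for MXI1, 0.27 for HCFC1, -0.054 for RYBP and 0.032 for GADD45A, and the CPI203 value of CDKN2B was -0.084. With median scaling, SGC-CBP30 gave -0.031 for USP36, -0.0059 for RYBP and -0.0078 for POLR1B, and the difference between the responses of MXI1 was -0.036. With quantile normalization, RYBP with SGC-CBP30 was -0.012, the difference for MXI1 -0.023 and the DMSO difference of MGA 0.0050. Leaving out each library gave, with SGC-CBP30, -0.054 to 0.031 for MAX, -0.12 to 0.31 for MGA, -0.050 to 0.041 for HCFC1, -0.013 to 0.10 for USP36 and -0.067 to 0.045 for GADD45A. It gave differences between responses of -0.0016 to 0.062 for MXI1 and -0.19 to 0.0013 for MLXIP, and DMSO differences of -0.079 to 0.036 for MXD1 and of -0.26 to 0.18 for MGA. Depth limits genes near 1 RPKM, such as ARRDC4, more than the network genes. With 2 libraries a group, p-values rest on the spread within all 4 groups and on a prior from all genes tested. They cover no spread beyond these libraries.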
